A study of Mus musculus with 6 samples.

Results

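The nuclear genes of the mitochondrial respiratory chain were compared between Runx3-/- and wild-type (WT) CD4+ dendritic cells (DC) of the mouse spleen. Members were the genes with a probe set of a single gene symbol starting with Nduf, Uqcr, Cox4 to Cox8 or Atp5, together with Sdha to Sdhd, which gave 89 of the 19938 genes with such a probe set. Of these, 83 members were measured, meaning a log2 value of at least 6.5 in 1 array or more, against 9922 of all genes. The measured members comprised 35 subunits of complex I, 7 assembly factors of complex I (Ndufaf genes), 4 subunits of complex II, 8 of complex III, 12 of complex IV and 17 of complex V. The prefix rule also took in Cox7a2l, a factor of respiratory supercomplexes, and placed with complex I the gene Ndufa4, whose product is now counted with complex IV.

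RNA came from 3 WT (Runx3 +/+) and 3 Runx3-/- male mice of 6 weeks, 1 array a mouse, and each litter gave a WT and a Runx3-/- animal, so replicates 1 to 3 are litters. The Runx3-/- mice lacked this RUNX-family transcription factor from the germline on, thus in every tissue and not in DC alone. Cells were sorted as CD11c+ MHCII+ and divided by CD4 and CD8, and the labels mention an Esam population without saying how it was gated. Each array value is a log2 probe set level, and probe sets of different genes were not ranked against each other.

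The respiratory chain passes electrons from NADH through complex I, and from succinate through complex II, to ubiquinone and then through complex III and cytochrome c to complex IV, which reduces oxygen. Complexes I, III and IV pump protons across the inner mitochondrial membrane, and complex V, the ATP synthase, uses the resulting gradient to make ATP. Some subunits are encoded by mitochondrial DNA and the rest, those described here, by nuclear genes, many of which are known targets of NRF1, ETS factors of the GABP kind and YY1.

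Runx3 itself checked the labels. Its log2 values were 11.24, 11.22 and 11.11 in WT and 9.16, 9.30 and 9.16 in Runx3-/- DC, a log2 change of -1.98 (SE 0.08, limma, adjusted p = 0.0027). The groups were far apart, although the adjusted p became 0.061 in a fit with litters as a replicate block and 0.053 without the WT array of litter 1. The 6 arrays had medians of 6.57 to 6.65. All 6 DC markers were measured in every group and none passed the adjusted threshold. Itgax, Flt3 and Zbtb46 (log2 change -0.11, -0.28 and -0.35, adjusted p = 0.469, 0.202 and 0.131, limma) were lower without overlap, as were 18.6% of all measured genes. H2-Ab1, Cd4 and Esam overlapped (-0.13, 0.034 and 0.15). The summed level of the 6 was 14.90 to 15.04 on the log2 scale in WT and 14.79 to 14.93 in Runx3-/- arrays. Of 6 red pulp macrophage markers, Spic (log2 change 1.40, adjusted p = 0.021, limma) and C1qa (1.34, adjusted p = 0.014, limma) rose past the adjusted threshold. Vcam1 and Slc40a1 (1.39 and 1.07, adjusted p = 0.067 and 0.163, limma) were higher without overlap, as were 9.86% of all measured genes. Hmox1 and Adgre1 overlapped (0.22 and 0.013). The summed level of the list was 12.8 to 13.2 on the log2 scale in WT and 13.4 to 13.7 in Runx3-/- arrays. Such sums add values off the log scale, so the brightest probe sets weigh most, in this list Adgre1 (12.26 to 12.58). With litters as a replicate block neither Spic nor C1qa passed, as 0 of all measured genes did. The Runx3-/- array of litter 3 stood apart in Siglech, a plasmacytoid DC marker, with 10.18 against 7.40 to 8.18 in the other 5 arrays. The summed level of the 3 plasmacytoid DC markers was 10.1 to 10.2 in WT and 10.2 to 11.5 in Runx3-/- arrays. That of the 3 CD8+ DC markers was 8.93 to 9.05 in WT and 9.24 to 9.98 in Runx3-/- arrays, without overlap. Each of the 3 was higher in the Runx3-/- animal of every litter, as were 19.3% of all measured genes. Xcr1 (log2 change 0.68, adjusted p = 0.156, limma) was higher without overlap, as were 9.86% of all measured genes. Cd8a and Clec9a overlapped (0.39 and 0.61). Cd8a reached 6.5 only in the Runx3-/- array of litter 3 (6.54). Of the 3 T cell markers, Cd3d and Cd3e were under 6.5 in every array. Cd8b1 was measured only through the Runx3-/- array of litter 3 (7.05). Their summed level, 7.08 to 7.15 in WT and 7.24 to 7.96 in Runx3-/- arrays, thus came largely from values under 6.5 and gives no T cell level. No B cell, T cell, plasmacytoid DC or CD8+ DC marker passed the adjusted threshold (limma), and the 3 neutrophil markers were not measured. The part of these markers in the results below was not tested. In sorted bulk samples, fewer cells of a type and less RNA per cell cannot be told apart.

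Because the members are transcribed from nuclear promoters, the 250 bases before their transcription starts were read from RefSeq (build GRCm38.p6), which held an entry for 70 of the 83 measured members. The letters searched, on both strands and with overlaps between motifs allowed, were TGTGGT for RUNX, GCGCA, any base and GCGC for NRF1, CCGGAA for ETS factors and ATGGCG for YY1. The RUNX letters were found before 8 of the 70 members (11.4%) and before 15.9% of the 27025 genes of the table. The NRF1 letters stood before 13 members (18.6%) and 4.23% of all genes, the ETS letters before 21 members (30.0%) and 13.6%, and the YY1 letters before 8 members (11.4%) and 6.53%. Another 30 members (42.9%) had none of the 4 motifs, against 65.8% of all genes. The genes of the table were not limited to protein-coding or measured genes, so the members were set beside an unlike group. These shares describe short windows, were not tested against each other and say nothing of binding.

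Sequences are shown for 5 members whose 250 bases overlapped no annotated gene, chosen after their values were seen. They include promoters with RUNX, NRF1 or ETS letters and 1 without a match, and none with YY1 letters. Capitals mark the letters of a motif on either strand. Cox6a1 has a pair of NRF1 matches and an ETS match, Atp5g2 an NRF1 match, Uqcr11 a RUNX match and a pair of ETS matches, Ndufc2 a RUNX match, and Uqcrc1 no match.
Cox6a1 (chr5:115348959-115349208, minus strand): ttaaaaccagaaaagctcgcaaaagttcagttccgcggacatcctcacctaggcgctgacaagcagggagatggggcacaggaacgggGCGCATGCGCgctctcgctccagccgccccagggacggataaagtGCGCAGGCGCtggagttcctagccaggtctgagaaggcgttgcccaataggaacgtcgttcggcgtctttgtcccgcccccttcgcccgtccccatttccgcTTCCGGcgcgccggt
Atp5g2 (chr15:102671048-102671297, minus strand): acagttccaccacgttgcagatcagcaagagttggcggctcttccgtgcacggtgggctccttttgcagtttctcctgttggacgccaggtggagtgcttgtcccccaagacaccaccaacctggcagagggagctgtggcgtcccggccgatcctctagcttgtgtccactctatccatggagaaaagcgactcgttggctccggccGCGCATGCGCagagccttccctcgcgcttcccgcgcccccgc
Uqcr11 (chr10:80406822-80407071, minus strand): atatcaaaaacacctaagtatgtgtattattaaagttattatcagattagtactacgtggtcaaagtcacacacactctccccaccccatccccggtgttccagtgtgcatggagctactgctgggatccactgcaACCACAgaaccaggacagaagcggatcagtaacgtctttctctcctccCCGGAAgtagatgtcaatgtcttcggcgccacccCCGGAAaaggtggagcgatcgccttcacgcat
Ndufc2 (chr7:97399753-97400002, plus strand): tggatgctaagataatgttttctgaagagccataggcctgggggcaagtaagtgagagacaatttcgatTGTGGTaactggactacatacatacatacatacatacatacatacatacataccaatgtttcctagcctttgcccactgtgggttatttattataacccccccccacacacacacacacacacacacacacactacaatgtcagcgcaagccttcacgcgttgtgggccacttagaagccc
Uqcrc1 (chr9:108936398-108936647, plus strand): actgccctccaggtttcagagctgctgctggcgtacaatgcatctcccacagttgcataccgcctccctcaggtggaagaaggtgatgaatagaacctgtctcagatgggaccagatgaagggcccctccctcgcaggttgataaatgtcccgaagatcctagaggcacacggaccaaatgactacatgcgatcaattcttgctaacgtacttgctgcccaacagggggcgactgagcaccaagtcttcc

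The same windows showed how often members share their promoter region with a neighbour. A protein-coding gene other than the member reached into the 250 bases of 23 of the 70 members (32.9%), against 13.1% of 17492 protein-coding genes of the table. Examples among members described below were Ndufb3 beside Fam126b, Sdhd beside Timm8b, Ndufaf5 beside Esf1 and Ndufaf7 beside Cebpz. Those windows are not printed.

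In Runx3-/- DC no respiratory chain gene passed the adjusted threshold in either direction. Of the 83 measured members, 0 had an adjusted p of at most 0.05 (limma, Benjamini-Hochberg over all 19149 tested probe sets), against 2.27% of the 9922 measured genes, and the smallest adjusted p of a member was 0.156, for Ndufaf5. At an unadjusted p of at most 0.05, 6 members (7.23%) were called, against 19.4% of all measured genes. The 6 were Ndufb3 and Cox6a2, higher in Runx3-/- DC, and Ndufaf4, Ndufaf5, Ndufaf6 and Ndufaf7, lower. Cox6a2 was measured only through its Runx3-/- arrays, so that its place here and among the members without overlap follows in part from the filter. The methods' one-way analysis of variance called 0 members after adjustment and 3 at an unadjusted p of at most 0.05 (19.8% of all measured genes). The unadjusted count was also sensitive to single arrays, at 1 without the WT array of litter 1, 2 without the Runx3-/- array of litter 1 and 3 without the Runx3-/- array of litter 3, where 12.4%, 14.3% and 15.2% of all measured genes were called. At the study's thresholds, an unadjusted p of at most 0.05 and a change of 1.5-fold, 0 members were called against 4.68% of all measured genes.

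The changes of the members were small. The log2 change ran from -0.40 to 0.42 with a median of 0.026, against a median of -0.033 over all measured genes, and 61 of the 83 members had a change of less than 0.1 on the log2 scale in either direction. For 76 members (91.6%) the whole 95% interval of the change lay within 1.5-fold, against 81.3% of all measured genes. The 7 members whose interval reached past 1.5-fold were Ndufb3, Ndufb6, Ndufaf1, Ndufaf5, Sdhd, Cox6a2 and Atp5e. A positive change was found for 56 members and a negative one for 27. With the Runx3-/- array of litter 1 left out only 34 of 83 changes were positive and the median was -0.016, so the sign of so small a median rested on that array.

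**Figure D1:**
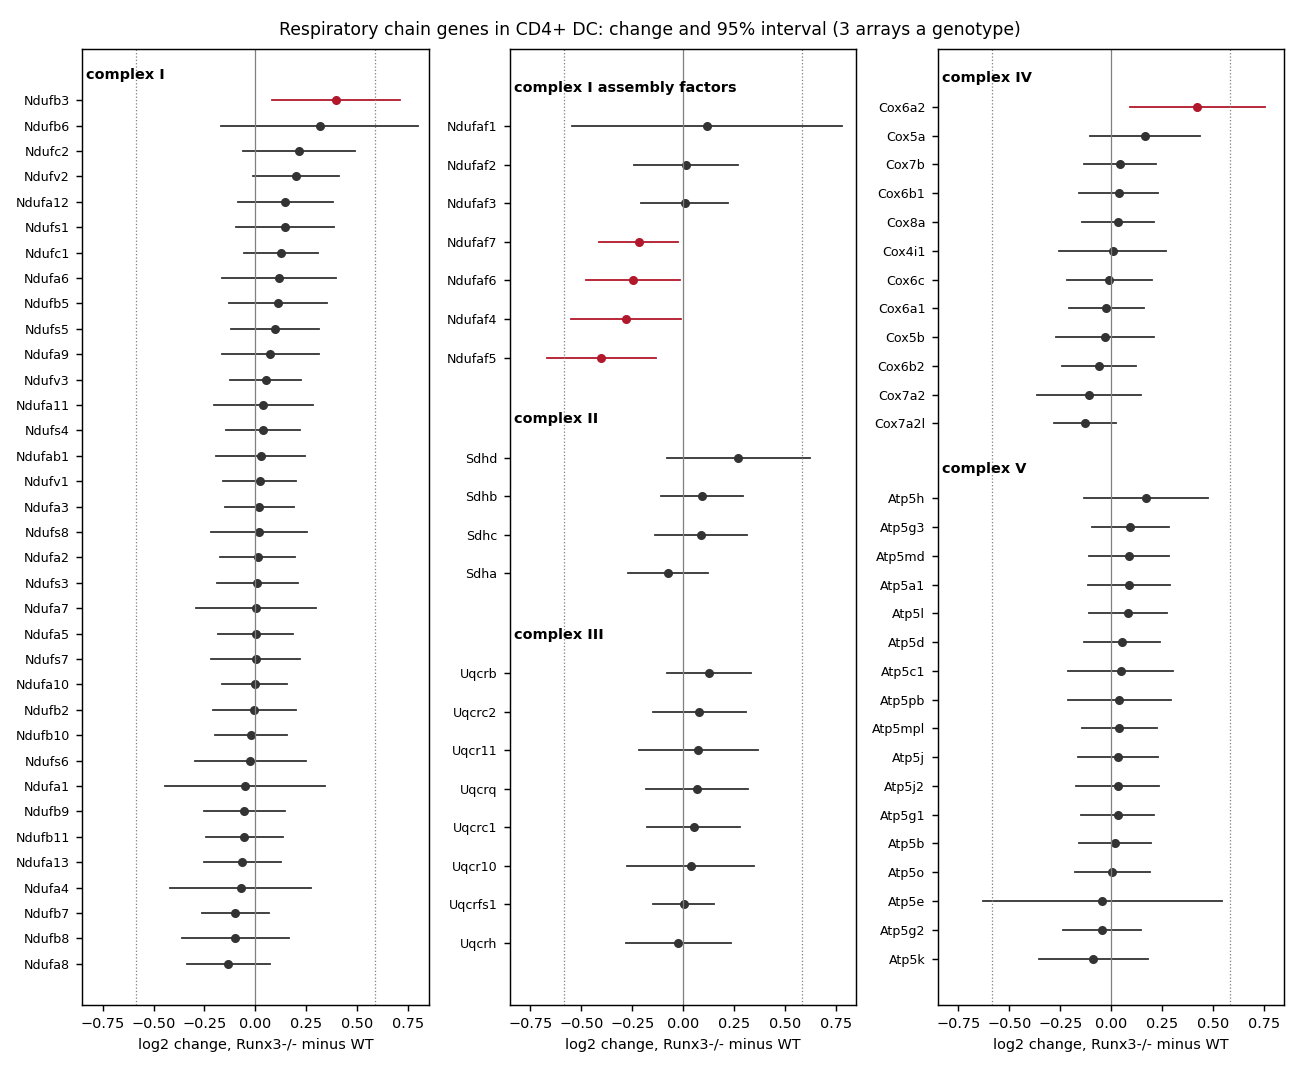
Log2 change (Runx3-/- minus WT, horizontal axis) of each of the 83 measured members, grouped by complex; points are estimates, bars 95% intervals from limma on 3 arrays a genotype, red marks an unadjusted p of at most 0.05, and dotted lines mark 1.5-fold. Intervals of 76 members stay between the dotted lines. To the left of 0 lie 4 of the 7 assembly factors, and 5823 of all 9922 measured genes had a negative change.

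The genotypes separated without overlap for 9 members. In 3 of them, Ndufb3, Ndufc1 and Cox6a2, every Runx3-/- array was above every WT array (3.61% of the members against 9.86% of all measured genes), and in 6, Ndufaf4, Ndufaf5, Ndufaf6, Ndufaf7, Ndufb7 and Cox7a2l, every Runx3-/- array was below (7.23% against 18.6%). Both shares were below those of all measured genes.

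**Figure D2:**
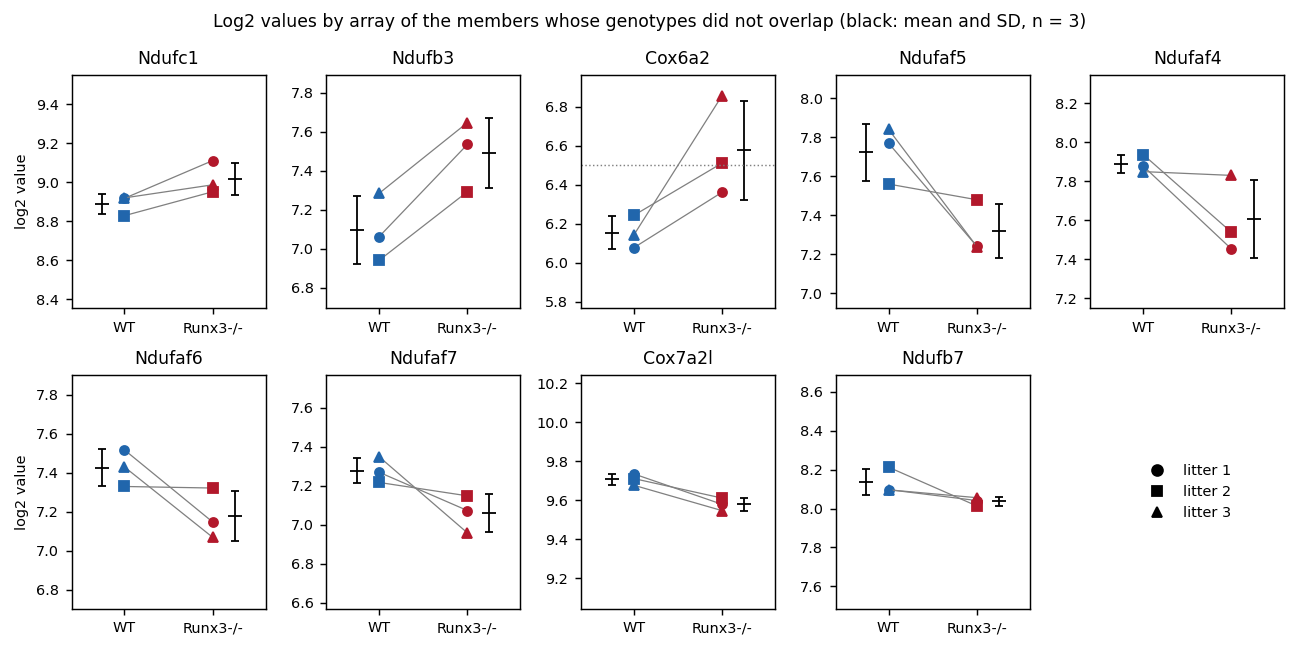
Log2 values by array (vertical axis, each panel spanning the same range) of the 9 members whose WT (blue) and Runx3-/- (red) values did not overlap; lines join littermates, black marks show mean and SD (n = 3), and the dotted line in the Cox6a2 panel is the level of 6.5. The nearest values of the genotypes are 0.0080 apart for Ndufaf6 and 0.0081 for Ndufb3. Of the 6 members with lower Runx3-/- values, 4 are assembly factors. Of all measured genes, 18.6% were lower without overlap.

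Among the 7 complex I assembly factors, proteins that build the complex without staying in it, 4 had lower values in every Runx3-/- array than in any WT array. Of all measured genes, 18.6% did so. The other 3 factors had changes of 0.0063 to 0.12. The median log2 change of the group was -0.22, the lowest of the groups of members. Ndufaf5, a hydroxylase that modifies a core subunit, had log2 values of 7.77, 7.56 and 7.84 in WT and of 7.24, 7.48 and 7.24 in Runx3-/- arrays. Its log2 change was -0.40 (95% interval -0.67 to -0.14, adjusted p = 0.156, limma). The gap was wide in litters 1 and 3, at -0.53 and -0.60, and was -0.080 in litter 2.

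Ndufaf4, which binds early assembly intermediates, had 7.88, 7.94 and 7.85 in WT and 7.45, 7.54 and 7.83 in Runx3-/- arrays. The change of -0.28 (95% interval -0.55 to -0.01, adjusted p = 0.296, limma) came from litters 1 and 2, since the pair of litter 3 differed by -0.019. Ndufaf6, another assembly factor, had 7.52, 7.33 and 7.43 in WT and 7.15, 7.32 and 7.07 in Runx3-/- arrays, a change of -0.25 (adjusted p = 0.284, limma). The littermates of litter 2 were nearly level, at 7.33 and 7.32.

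Ndufaf7, an arginine methyltransferase that acts on a core subunit, had 7.27, 7.22 and 7.35 in WT and 7.07, 7.15 and 6.96 in Runx3-/- arrays. The change was -0.22 (95% interval -0.41 to -0.02, adjusted p = 0.268, limma) and was negative in each litter. Ndufaf1, Ndufaf2 and Ndufaf3 gave changes of 0.12, 0.013 and 0.0063, and the Ndufaf1 values spread widely, from 8.18 to 9.05 in WT and from 8.36 to 9.09 in Runx3-/- DC, in the same order of litters. All arrays of the 4 lower factors had values between 6.96 and 7.94, not far above the background level of 6.5. The number of assembly factors at an unadjusted p of at most 0.05 went from 4 to 1 when the arrays were quantile normalized or centred on their medians, with an intensity trend in the variance, with litters as a replicate block, and without the array of WT litter 1, Runx3-/- litter 1 or WT litter 3. It went to 2 with the analysis of variance and without the Runx3-/- array of litter 3. The 4 changes kept a negative sign in all 16 alternatives.

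Complex I subunits as a group stayed near 0, with a median log2 change of 0.019 over 35 genes and 1 of them, Ndufb3, at an unadjusted p of at most 0.05. With single arrays left out, the median of complex I ran from -0.018 to 0.049. None of the 6 measured subunits of the catalytic core had an unadjusted p of at most 0.05 (limma). These subunits carry the flavin and iron-sulphur clusters or the quinone site. Their changes were all positive, as were those of 41.3% of all measured genes, and ran from 0.00073 to 0.20 with a median of 0.020. The largest was that of Ndufv2, a subunit with an iron-sulphur cluster, whose values were 11.46, 11.39 and 11.63 in WT and 11.72, 11.63 and 11.73 in Runx3-/- arrays (change 0.20, 95% interval -0.01 to 0.41, adjusted p = 0.337, limma). These groups met at the WT array of litter 3. Over the 29 accessory subunits, 17 changes were positive and 12 negative.

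Ndufb3, an accessory subunit of the membrane arm, had log2 values of 7.06, 6.94 and 7.28 in WT and of 7.53, 7.29 and 7.65 in Runx3-/- arrays. Its change of 0.40 (95% interval 0.08 to 0.71) had an adjusted p of 0.224 (limma), and of 0.123 with litters as a replicate block. Its littermate differences of 0.47, 0.35 and 0.36 were alike, while the unpaired groups were only 0.0081 apart, with 7.28 the highest WT and 7.29 the lowest Runx3-/- value.

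Other accessory subunits showed how litters carried the spread. Ndufb6 had 10.52, 10.16 and 10.89 in WT and 11.00, 10.63 and 10.89 in Runx3-/- arrays, a change of 0.32 with an SE of 0.20, with no difference in litter 3 (-0.0021). Ndufc2 and Ndufc1 gave 0.22 and 0.13, with each litter positive. The 2 probe sets of Ndufc1 differed, at 0.13 and 0.0093. Ndufa1, an accessory subunit encoded on the X chromosome, had 7.89, 7.66 and 8.02 in WT and 8.09, 7.77 and 7.56 in Runx3-/- arrays. Its change of -0.052 (95% interval -0.44 to 0.34) joined positive differences in litters 1 and 2 with -0.47 in litter 3. Ndufb7 was lower by little, with a change of -0.098 and adjusted p = 0.542 (limma).

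Complex II, or succinate dehydrogenase, is made of the flavoprotein Sdha, the iron-sulphur protein Sdhb and the membrane anchors Sdhc and Sdhd. Sdha, with 11.10, 11.01 and 11.16 in WT and 10.93, 10.99 and 11.11 in Runx3-/- arrays, had a change of -0.076 (95% interval -0.27 to 0.12) that was negative in each litter. Sdhd had 9.58, 9.41 and 9.70 in WT and 10.04, 9.56 and 9.90 in Runx3-/- arrays, a change of 0.27 (95% interval -0.08 to 0.62, adjusted p = 0.426, limma) that was positive in each litter. Sdhb and Sdhc gave 0.090 and 0.087, both largest in litter 1. The flavoprotein and the anchor Sdhd therefore pointed in opposite directions, neither past the threshold, and the difference between them was not tested.

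Complex III, the cytochrome bc1 complex, had changes from -0.024 to 0.13 over 8 subunits, with a median of 0.059, and every interval lay within 1.5-fold. Uqcrc1, a core protein, had 10.20, 10.24 and 10.12 in WT and 10.40, 10.21 and 10.11 in Runx3-/- arrays. Its change was 0.050 (95% interval -0.18 to 0.28). Only the Runx3-/- array of litter 1 lay above the WT range. The small subunit Uqcrb gave 0.13, the second core protein Uqcrc2 0.079, and the small subunits Uqcrq and Uqcr11 0.068 and 0.074. The Rieske protein Uqcrfs1 gave 0.0024. For Uqcr11 the 2 probe sets gave 0.074 and 0.25.

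Complex IV, cytochrome c oxidase, had a median change of -0.0012 over 12 genes, with 6 positive and 6 negative. Several of its subunits exist as a common form and a form restricted to muscle, testis or lung. The changes of the common forms were 0.0064 for Cox4i1, -0.024 for Cox6a1, 0.037 for Cox6b1, -0.11 for Cox7a2, 0.043 for Cox7b and 0.034 for Cox8a, all with intervals within 1.5-fold. Cox5a gave 0.17 (95% interval -0.11 to 0.44). Among the restricted forms, Cox4i2, Cox7a1, Cox7b2, Cox8b and Cox8c were not measured, and neither was Ndufa4l2, a relative of Ndufa4. Their array values ran from 4.83 to 6.20. Cox6b2 had 6.86, 6.81 and 6.91 in WT and 6.90, 6.74 and 6.77 in Runx3-/- arrays, a change of -0.059.

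Cox6a2, the heart and muscle form of subunit 6a, was below 6.5 in all WT arrays, at 6.08, 6.24 and 6.14, and had 6.36, 6.51 and 6.86 in Runx3-/- arrays. It was the single member that passed the filter through the Runx3-/- arrays alone, and its change was 0.42 (95% interval 0.09 to 0.76, adjusted p = 0.216, limma). With the WT values raised to 6.5, the Runx3-/- mean was 1.05-fold higher. The Runx3-/- array of litter 1 (6.36) was also under 6.5, so this is no lower bound. Its highest value fell in the Runx3-/- array of litter 3, where Siglech was also highest. The 3 Runx3-/- arrays had the same order in both genes (Siglech 7.46, 8.18 and 10.18). The WT arrays, all under 6.5 for Cox6a2, had the reverse order (Siglech 7.45, 7.40 and 7.43). Of the other plasmacytoid DC and CD8+ DC markers, Bst2, Tcf4 and Clec9a also rose from litter 1 to litter 3 in Runx3-/- arrays. Xcr1 and Cd8a were highest in litter 3 too but lowest in litter 2. The T cell marker Cd8b1 also rose from litter 1 to litter 3. A relation of Cox6a2 to any of these genes was not tested. Without the Runx3-/- array of litter 3 the Cox6a2 change was 0.28 (adjusted p = 0.308, limma).

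Cox7a2l had 9.73, 9.71 and 9.68 in WT and 9.58, 9.61 and 9.55 in Runx3-/- arrays. The SD within each genotype was 0.029 and 0.032, and the change of -0.13 (95% interval -0.28 to 0.02, adjusted p = 0.388, limma) was found in every litter and on both of its probe sets.

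Complex V had a median change of 0.040 over 17 subunits, with 14 positive and 3 negative and none at an unadjusted p of at most 0.05. The F1 head, which makes ATP, gave -0.043 to 0.087 over 5 subunits, the latter for the catalytic-head subunit Atp5a1. The 4 subunits of the peripheral stalk gave 0.0053 to 0.17, the latter for Atp5h. In the membrane part, the genes of the proton-carrying subunit c encode the same mature protein, and Atp5g1, Atp5g2 and Atp5g3 gave 0.031, -0.045 and 0.094. The small membrane subunits Atp5md and Atp5l gave 0.087 and 0.082. Atp5e varied most, with 9.23, 8.81 and 9.09 in WT and 9.12, 9.39 and 8.49 in Runx3-/- arrays, so that its littermate differences were -0.11, 0.58 and -0.59.

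The litters did not give the same picture. In litter 1 the Runx3-/- value was above the WT value for 67 of 83 members, with a median difference of 0.12, against 36 members in litter 2 (median -0.026) and 33 in litter 3 (median -0.019). Over all measured genes the medians were -0.037, -0.0077 and -0.062. In complex III all 8 subunits were higher in the Runx3-/- animal of litter 1, by a median of 0.21, and the medians of litters 2 and 3 were -0.038 and -0.019. Complex II gave 0.24, -0.0053 and 0.049, and complex IV 0.12, -0.055 and -0.076. The assembly factors went the other way in litter 1, with -0.20 there, -0.069 in litter 2 and -0.019 in litter 3. The subunits of complexes I to V thus were high together in 1 Runx3-/- array. Centred on its own mean, the median member stood at 0.098 in that array and between -0.042 and 0.012 in the other 5. Genes of the mitochondrial ribosome and of the tricarboxylic acid cycle, described below, had medians of 0.057 and 0.053 in that array. Their medians in the WT array of litter 3 were 0.059 and 0.071. All 3 litters had the same sign for 17 members with a positive and 10 with a negative difference (20.5% and 12.0%, against 19.3% and 32.0% of all measured genes).

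**Figure D3:**
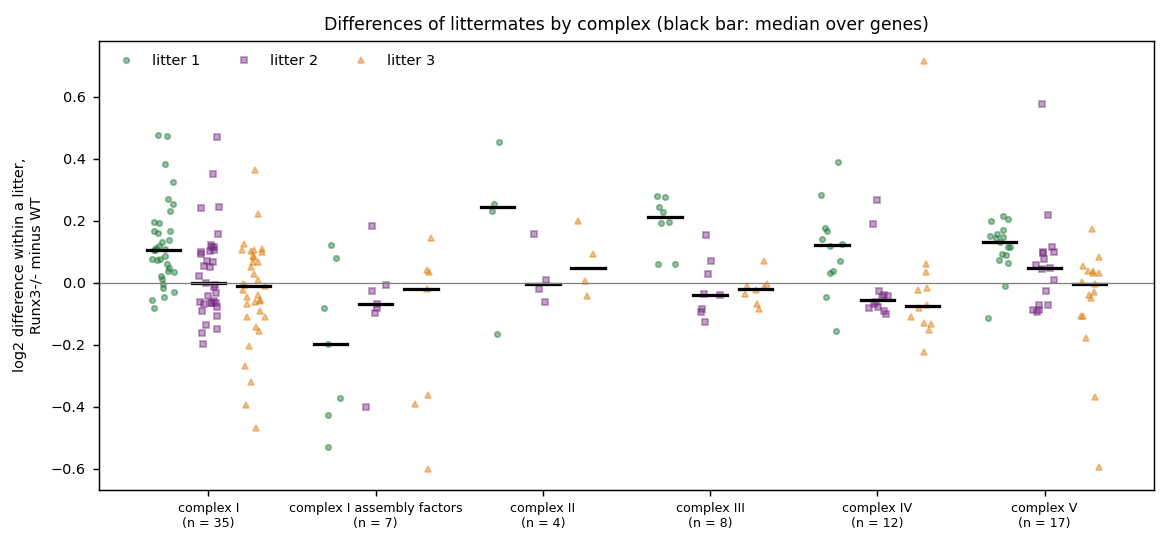
Difference of log2 values within each litter (Runx3-/- minus WT, vertical axis) for every measured member, by complex; points are genes, symbols and colours are litters, black bars are medians over genes. The bars of litter 1 lie above 0 for complexes I to V (0.21 for complex III) and below 0 for the assembly factors. Those of litters 2 and 3 run from -0.076 (complex IV, litter 3) to 0.049 (complex II, litter 3).

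The changes of members with and without each set of promoter letters were set side by side, with no test of the difference. The median log2 change was 0.023 for the 8 members with RUNX letters and 0.020 for the 62 without, and 0.021 and 0.020 for those with and without the ETS letters. It was -0.024 with and 0.026 without the NRF1 letters, and 0.0024 and 0.024 with and without the YY1 letters. Of the members printed above, the changes were -0.024 for Cox6a1 and -0.045 for Atp5g2, which have NRF1 letters, 0.074 for Uqcr11 and 0.22 for Ndufc2, which have RUNX letters, and 0.050 for Uqcrc1.

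Other genes of mitochondrial energy metabolism were set beside the members. No gene of the following lists passed the adjusted threshold, against 2.27% of all measured genes. They held 16 genes of electron carriers and ubiquinone synthesis (median change -0.053), 37 other assembly factors (-0.031) and 17 genes of the tricarboxylic acid cycle and pyruvate dehydrogenase (0.0052). They also held 7 nucleotide, phosphate and anion carriers (0.070), 76 genes of the mitochondrial ribosome (-0.0059) and 23 of protein import (-0.068). In that order, 2, 2, 0, 0, 1 and 2 genes had an unadjusted p of at most 0.05 (limma). These were 12.5%, 5.41%, 0%, 0%, 1.32% and 8.70% of each list, against 19.4% of all measured genes. The smallest p of each list belonged to Coq6, a ubiquinone synthesis enzyme (-0.20), Uqcc3, an assembly factor of complex III (-0.27, adjusted p = 0.112), Pdha1 of pyruvate dehydrogenase (0.26), the outer membrane channel Vdac3 (0.28), Mrps34 of the small ribosomal subunit (-0.20) and Tomm34 (-0.21). Respiratory chain genes encoded by mitochondrial DNA were not analysed here.

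Of 15 nuclear regulators of mitochondrial genes, 1 was lower and none higher after adjustment (2.27% of all measured genes), and 4 were lower and 1 higher at an unadjusted p of at most 0.05 (33.3%, against 19.4% of all measured genes). Their median log2 change was -0.13, with 10 of 15 negative. Myc, a transcription factor that drives growth and mitochondrial biogenesis, had 10.58, 10.42 and 10.72 in WT and 9.89, 9.59 and 9.50 in Runx3-/- arrays, a log2 change of -0.91 (SE 0.13, adjusted p = 0.034, limma). This call held in 8 of 16 alternatives. Among the others, it was lost when any 1 of the 6 arrays was left out (adjusted p 0.065 to 0.161). It was also lost in the fit with litters as a replicate block (adjusted p = 0.104). Esrra, a nuclear receptor that activates respiratory chain genes, had 7.66, 7.72 and 7.78 in WT and 7.34, 7.35 and 7.31 in Runx3-/- arrays, a change of -0.38 (adjusted p = 0.056, limma). Nrf1, Gabpa, Yy1 and Tfam gave 0.00041, 0.015, 0.0067 and -0.0039. Whether the changes of regulators bear on those of the members was not tested.

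**Figure D4:**
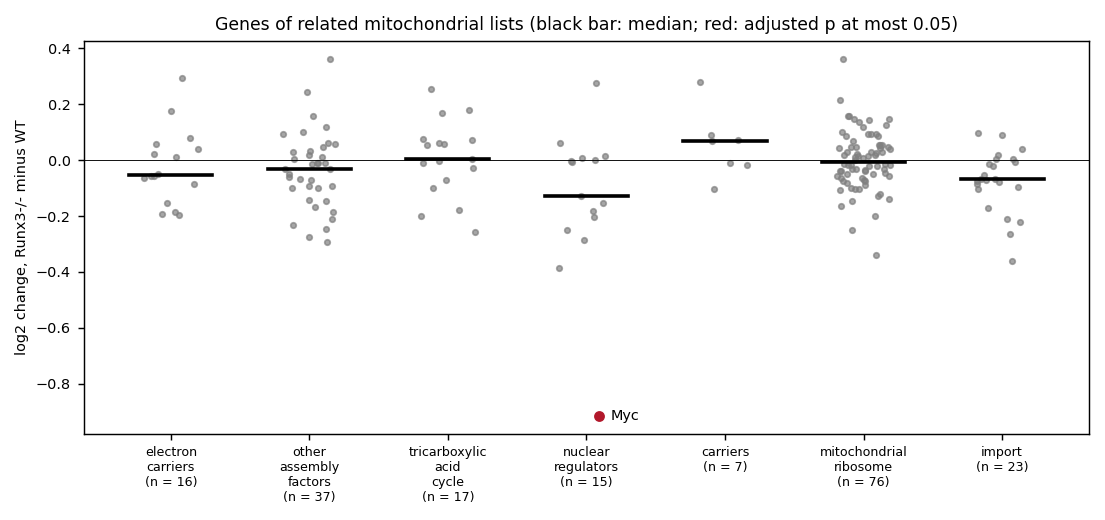
Log2 change (Runx3-/- minus WT, vertical axis) of each measured gene of the 7 related lists; points are genes, black bars medians, and red marks an adjusted p of at most 0.05 in limma. Myc, at -0.91, is the single red point, and list medians run from -0.13 for nuclear regulators to 0.070 for carriers.

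**Figure D5:**
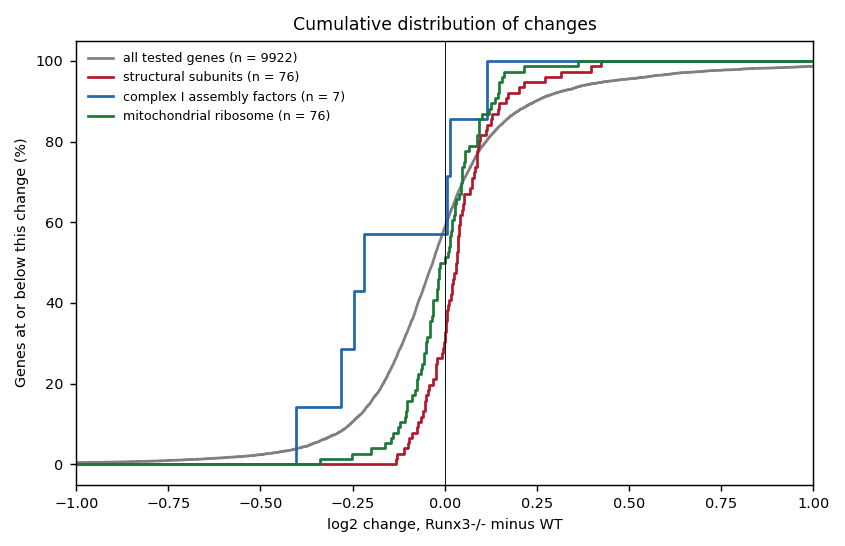
Cumulative share of genes (vertical axis, %) at or below a given log2 change (Runx3-/- minus WT, horizontal axis) for all 9922 measured genes, 76 structural subunits, 7 complex I assembly factors and 76 genes of the mitochondrial ribosome. The curve of the subunits is steeper than that of all genes, with all values between -0.13 and 0.42.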

How the data were processed

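RNA of sorted CD4+ DC was hybridised to 1 Affymetrix array a mouse (3 WT, 3 Runx3-/-). The deposited log2 values were made by the authors in Partek Genomics Suite by RMA with GC correction, and the submitters' processing notes name the build mm9. RMA normalizes probes between arrays, which can mask a shift of nearly all genes and compresses differences of dim probe sets, although the summarised values still differed in median between arrays. Probe set identifiers were those of a gene array, not of the exon array named in the methods. The table held 35399 probe sets, 21789 of them with 1 gene symbol in the platform annotation, 1621 with several and 11989 with none.

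Values were used as deposited. Probe sets at 6.5 or more in at least 1 array were tested (19149), and the one with the highest mean stood for a gene. Another 6 probe sets of members with several symbols were left out. Genotypes were compared with limma 3.58.1 in R 4.3.3 (lmFit and eBayes, two-sided, genotype as the only term), with Benjamini-Hochberg adjustment over all tested probe sets, and the code was tested on simulated data. The number of arrays limits the precision. The labels give the litters, which pair the samples: deviations of littermates from their group means correlated at 0.158, 0.102 and 0.246. The members and lists were chosen with earlier results of these data known. Genes named were Runx3, the markers Ndufa1, Sdha and Uqcrc1, the 5 smallest p of each complex and of the assembly factors, all of complex II, the largest changes, the tissue-restricted isoforms with their common partners, the subunit c genes, and the called genes or else the smallest p of each related list. Ndufb7, Ndufa4, Uqcrfs1, Ndufaf2, Ndufaf3, Atp5e, Esrra and the 4 regulators at the end of that list were named after their values were seen. The alternatives were other filters, normalizations, variance models, litter terms and tests, the mean over probe sets, and leaving out each array.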

Additional observations from a re-analysis of the deposited data

How the results depend on the processing

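Over 16 alternatives, the number of members past the adjusted threshold stayed 0 in both directions, as did the number past the study's thresholds, and the lowest adjusted p of a named member was 0.109. Members at an unadjusted p of at most 0.05 numbered 3 with the methods' analysis of variance and 1 to 7 when each array was left out in turn. The median change of complex IV ran from -0.060 to 0.036 over the arrays left out. Of 38 named members, 27 kept their sign under every alternative and 11, none past the threshold, did not. The Runx3 change was -1.98 (adjusted p = 0.061) with the litter as a replicate block and -2.03 to -1.96 with single arrays left out, with an adjusted p of 0.053 without the WT array of litter 1. Under the block, 0 of all 9922 measured genes passed the adjusted threshold, against 225 without it, and 6 members had an unadjusted p of at most 0.05 with and without it, 1 of them an assembly factor with the block and 4 without. A random litter term gave 453 genes, no array of WT litter 1 gave 0, no Runx3-/- litter 3 gave 1, and the analysis of variance gave 5. The cause of these shifts was not tested.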

Other observations

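Probe sets that carry several symbols lay outside the members. The 6 of them that name a member gene, for Cox7c, Ndufb4 and Ndufs5 with a copy or pseudogene of each, had log2 changes of -0.10 to 0.021 (Runx3-/- minus WT), with adjusted p of 0.599 or more in limma. RefSeq names 19 pseudogenes after members, and reads of such copies cannot be told from the parent gene on an array. Among the 17 members with several measured probe sets, the largest gap between the changes of probe sets of a gene was 0.17, for Uqcr11.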
